A study of Drosophila melanogaster with 2 samples.

Results

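The genes described here encode the translation initiation factors (eIF) and elongation factors (eEF) of Drosophila melanogaster. They were chosen by name, as the protein-coding genes of the Ensembl BDGP6 annotation whose symbol starts with eIF or eEF. The rule found 52 of 13945 protein-coding genes, 44 for initiation and 8 for elongation. Binding of stc (shuttle craft), a zinc finger protein, was measured by ChIP-seq, the sequencing of DNA recovered with a protein by an antibody, in whole embryos of the strain stc-GFP, collected from 0 to 24 h. The stc protein carried eGFP, and an antibody against GFP recovered it with the DNA bound to it, so that binding in whole embryos is a mixture over all tissues and stages of that day. There was 1 group with 2 biological replicates, and every embryo carried the tagged stc. The control experiment that the labels name was not analysed here, so a peak can also be background. The files held peaks, intervals of enriched DNA, each with a summit (its highest point) and a signal value. Read depth is unknown, and the signal is the authors' value on a scale the sources used here do not give, so signals are compared only within a list. To be called bound, a gene needed a summit no farther than 250 bp from one of its transcription start sites (TSSs).

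Translation begins when initiation factors bring the small ribosomal subunit, the initiator tRNA and the capped mRNA together and the large subunit joins at the start codon. Elongation factors then deliver each aminoacyl-tRNA and move the ribosome along the mRNA. Genes for most of these factors are transcribed in nearly all cells, and in flies many genes of the translation machinery start at a short pyrimidine-rich element, the TCT initiator, in place of the usual initiator.

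The conservative list, the stricter of the lists that the authors made from both replicates, held 3831 peaks, of which 1105 lay within 250 bp of a protein-coding TSS. The median signal of those promoter peaks was 148. In that list, summits lay at the promoters of 7 of the 52 factor genes, 4 for elongation and 3 for initiation. Sequences are given for 4 of the 7 bound promoters and for that of eIF4EHP. That gene was not bound in any thresholded list but had a strong ranked peak. The bound promoters of eIF6, eEF1alpha1 and eEF5 are not shown. The sequences come from RefSeq Release 6 (dm6), run 5′ to 3′ on the strand of the gene and end 49 bases past the TSS nearest to the summit. The first 4 start 150 bases before that TSS and the last 250 bases before it. Capitals mark 4 of the motifs searched, the DRE (TATCGATA) in eEF1gamma, Motif 1 (GGTCACAC) in eIF5B, and the E-box (CACGTG) and TCT initiator (TCTTT) in eEF2. The TCT initiator is marked only where it starts within 10 bp of the TSS, and by that rule eIF2D and eIF4EHP have no capitals. The letters of the TATA box, the GAGA motif and the usual initiator were searched as well and are not marked. The regions are chr3R:29220022-29220221 (plus strand) for eEF1gamma, chr2L:21682067-21682266 (minus) for eEF2, chr3L:3460554-3460753 (minus) for eIF5B, chr3R:29151745-29151944 (minus) for eIF2D and chr3R:24108911-24109210 (minus) for eIF4EHP.
eEF1gamma: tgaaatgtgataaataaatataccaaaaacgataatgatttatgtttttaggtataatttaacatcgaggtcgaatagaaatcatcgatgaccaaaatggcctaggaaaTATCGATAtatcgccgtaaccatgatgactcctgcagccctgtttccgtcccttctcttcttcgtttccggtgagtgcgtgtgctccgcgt
eEF2: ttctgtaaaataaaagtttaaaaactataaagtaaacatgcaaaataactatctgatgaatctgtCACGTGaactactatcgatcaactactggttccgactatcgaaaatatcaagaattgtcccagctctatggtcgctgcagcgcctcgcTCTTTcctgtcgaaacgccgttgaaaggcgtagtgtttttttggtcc
eIF5B: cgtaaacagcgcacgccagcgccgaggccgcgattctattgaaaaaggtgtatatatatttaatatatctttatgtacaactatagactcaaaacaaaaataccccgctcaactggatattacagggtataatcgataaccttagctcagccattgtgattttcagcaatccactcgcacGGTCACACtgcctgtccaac
eIF2D: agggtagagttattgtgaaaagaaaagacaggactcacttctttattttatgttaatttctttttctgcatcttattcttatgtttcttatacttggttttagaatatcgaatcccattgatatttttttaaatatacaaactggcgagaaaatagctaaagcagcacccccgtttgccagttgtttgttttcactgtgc
eIF4EHP: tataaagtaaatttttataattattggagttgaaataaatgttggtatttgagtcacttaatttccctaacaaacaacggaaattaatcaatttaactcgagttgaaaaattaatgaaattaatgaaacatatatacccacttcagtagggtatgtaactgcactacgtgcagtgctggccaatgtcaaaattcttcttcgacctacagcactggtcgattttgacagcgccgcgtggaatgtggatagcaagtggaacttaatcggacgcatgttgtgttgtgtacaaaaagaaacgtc
In these runs the summit of the conservative list is base 97 of eEF1gamma, base 174 of eEF2, base 26 of eIF5B and base 61 of eIF2D, counted from 1 at the 5′ end. For eIF4EHP, base 18 is the summit of a peak in the authors' ranked list. The summit of eEF1gamma lay 54 bp upstream of the TSS, and the DRE occupied the bases from -41 to -34. In eEF2 the summit lay 23 bp downstream of the TSS, past the TCT initiator at +3 to +7, and the E-box lay upstream at -85 to -80. Motif 1 of eIF5B lay downstream of the TSS at +30 to +37, and the summit upstream at -125. None of the marked motifs covered the summit of the conservative list.

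Elongation factor genes were bound at 4 of 8 (50%, exact Clopper-Pearson 95% interval 15.7 to 84.3) and initiation factor genes at 3 of 44 (6.82%, 1.43 to 18.7). Of all protein-coding genes, 10.2% were bound in the same list, so that the initiation factors were near the background and the factor genes as a whole, at 13.5% (5.59 to 25.8), were close to it too. Intervals cover counting error over genes only, and genes are not replicates. The share of elongation factors exceeded that of initiation factors by 43.2 percentage points (Newcombe 95% interval 12.5 to 72). The comparison rests on 8 elongation factor genes and was made without a test. The larger list, the other that the authors made from both replicates, held 5084 peaks. It gave 4 of 8 for elongation and 9 of 44 for initiation, a difference of 29.5 points (-2.21 to 59.5), with 13.4% of all genes bound. In replicate 1's own list of 2782 peaks the counts were 2 of 8 and 4 of 44 (difference 15.9 points, -5.64 to 50.4), with 8.18% of all genes bound. In replicate 2's own list of 3806 peaks they were 3 of 8 and 7 of 44 (21.6 points, -5.76 to 54.5), with 10.8% of all genes bound. The factor genes as a whole were thus near the background in the conservative list but not in every list. They stood at 25% (14 to 38.9) in the larger list, 11.5% (4.35 to 23.4) in replicate 1's and 19.2% (9.63 to 32.5) in replicate 2's. The share was higher for elongation in each list, and outside the conservative list the interval of the difference included 0. Whether an interval includes 0 is not a test here, since the 8 and 44 genes share the same libraries. Cytoplasmic ribosomal protein genes, the best bound genes of the translation machinery compared here, stood at 57 of 92 (62%, 51.2 to 71.9) in the conservative list, and mitochondrial ribosomal protein genes at 10 of 73 (13.7%).

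**Figure D1:**
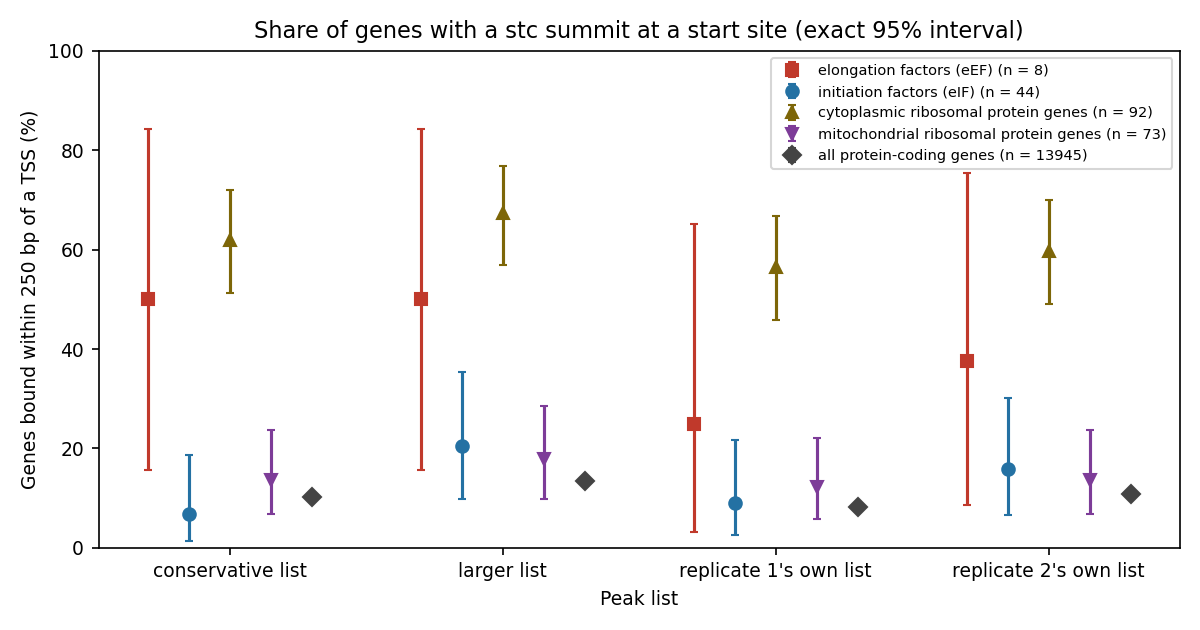
Share of genes bound (%, vertical axis) in each of 4 thresholded lists (horizontal axis), with points for the shares and bars for exact 95% intervals. In the conservative list elongation factors stand at 50% and initiation factors at 6.82%, beside 10.2% for all protein-coding genes, and the bars of the 8 elongation factors are wide in every list.

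Among the elongation factors, the peaks lay at the genes for the carrier of aminoacyl-tRNA, one subunit of its exchange factor, the translocase and the factor that helps stalled ribosomes. The strongest was at eEF1gamma (FBgn0029176), a subunit of the complex that recharges eEF1alpha with GTP. Its peak spanned 29220037 to 29220237 on 3R (dm6, as are all positions here), with a signal of 365 in the conservative list, 198 in replicate 1's own list and 162 in replicate 2's. Of the promoter peaks in the conservative list, 85.6% had a lower signal. The summit was at -54 in the conservative list, at -14 in replicate 1 and at -37 in replicate 2, and no other gene had a TSS within 250 bp of it.

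The peak at eEF1alpha1 (FBgn0284245), which carries aminoacyl-tRNA to the ribosome, spanned 11891885 to 11892234 on 2R. It had a signal of 163 in the conservative list, 82.3 in replicate 1's list and 69.8 in replicate 2's. It stood near the middle of the promoter peaks, with 54.8% of them lower. The gene has 4 annotated TSSs, and the summit lay 62 bp upstream of an internal one. When only the TSS farthest 5′ of each gene counted, eEF1alpha1 was no longer bound, and 6 factor genes were, against 8.67% of all genes. Its other TSSs include one that lies 156 bp head to head with ERp60, which encodes a protein disulfide isomerase of the endoplasmic reticulum.

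The remaining pair of bound elongation factors had weaker peaks, and neither was in replicate 1's own list. At eEF5 (FBgn0285952), also known as eIF5A, which carries the modified residue hypusine and relieves stalled ribosomes, the peak spanned 24057612 to 24057961 on 2R with the summit at -11. The signal was 125 in the conservative list, above 39.7% of the promoter peaks, and 61.9 in replicate 2's own list. In replicate 1 the gene had a peak only in the longer ranked list, with a signal of 55.6. At eEF2 (FBgn0000559), the GTPase that moves the ribosome by a codon, the peak spanned 21681918 to 21682267 on 2L, with a signal of 90.7, above 16.6% of the promoter peaks. It was in neither replicate's own list and only in their ranked lists, with signals of 42.7 and 46.5. The call at eEF2 therefore rests on the lists made from both replicates.

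The other 4 elongation factor genes were bound in none of the 4 thresholded lists. The paralog eEF1alpha2 had a ranked peak of 17.7 in the ranked list from which the conservative list was drawn, 3.93 in replicate 1 and 8.15 in replicate 2, far below the values of eEF1alpha1. For eEF1delta, another exchange factor subunit, the values were 16.7, 11.8 and 8.18. The exchange subunit eEF1beta had a ranked peak in replicate 2 only, at 25.4, and so did eEFSec, the carrier of selenocysteine tRNA, at 2.4.

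Among the initiation factors, both genes for factors of subunit joining were bound, and these had the strongest initiation factor peaks. The gene eIF6 (FBgn0034915) encodes a factor that binds the large subunit, acts in its assembly and keeps it from joining the small one too early. Its peak covered 281 bp from 23850264 to 23850544 on 2R. Its signal was 1123.1, rank 19 of the 3831 peaks and above 98.6% of the promoter peaks. In the replicates' own lists the signals were 586 (rank 15) and 537 (rank 27), and the summit was at -102 in all 4 lists. A TSS of the antisense non-coding gene asRNA:CR45928 lay 29 bp from that of eIF6, so the peak cannot be assigned to either gene alone. At eIF5B (FBgn0026259), the GTPase that joins the subunits, the peak spanned 3460553 to 3460902 on 3L, with signals of 222, 112 and 111 in the conservative list, replicate 1 and replicate 2. Of the promoter peaks 70.8% were lower. The gene spans 32320 bp, the summit lay between its 2 TSSs, and 3 further summits, with signals of 206, 131 and 91.9, lay inside it. The genes armi and CG46463 start 340 and 338 bp from its farther TSS, head to head with eIF5B.

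The third bound initiation factor gene was eIF2D (FBgn0041588), which encodes a factor that can place tRNA on the small subunit and acts in its recycling. Its peak spanned 29151709 to 29152058 on 3R, with the summit at -90 and a signal of 100, above 23.8% of the promoter peaks. The signal was 69.6 in replicate 2's own list, with the summit at -100. In replicate 1 it had a ranked peak of 34.5, and none in the thresholded list. With the IDR threshold at 0.001 in place of 0.01, eIF2D and eEF2 were no longer bound and 5 factor genes were, against 6.4% of all genes. The IDR (irreproducible discovery rate) is low where a peak ranks consistently high in both of a pair of lists.

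**Figure D2:**
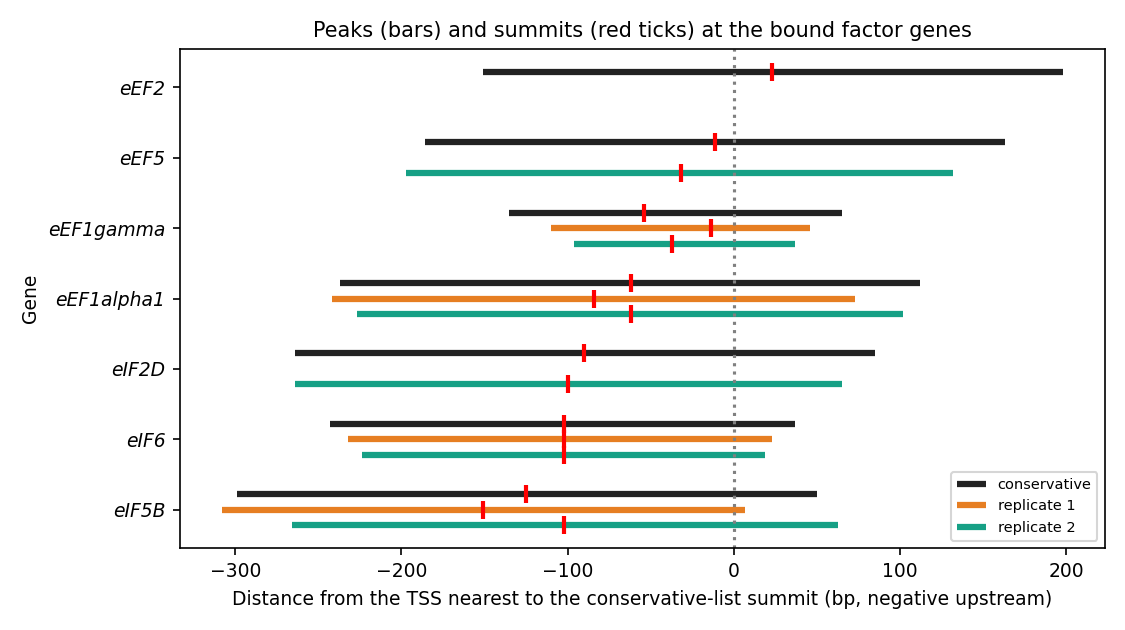
Peaks (bars) and summits (red ticks) at the 7 factor genes bound in the conservative list, by distance in bp from the TSS nearest to that list's summit, with the replicates' own lists where they hold the peak. The summits in the conservative list run from -125 at eIF5B to +23 at eEF2, and those of eIF6 fall at -102 in each list.

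None of the 16 genes for eIF3, the scaffold that holds the small subunit and other factors, was bound in the conservative list, where 10.2% of all genes were, and 4 were bound in the larger list, where 13.4% of all genes were. Counts this small over single groups of factors are a description, and a count of 0 is near what that share of all genes gives. The largest subunit, eIF3a, had a signal of 115 in the larger list with the summit at +53, was in replicate 2's own list at 71.7, and shared the region with CG1074, whose TSS lay 70 bp away. Core subunit eIF3c had a signal of 117 in the larger list with the summit at -66, and was in replicate 1's own list at 80.1. The subunits eIF3f1 (66.3, at -37) and eIF3h (40.6, at +133) were lower in the larger list, with eIF3f1 bound in replicate 2's list at 47.3 and eIF3h bound in neither. The nearest summits to eIF3h in the replicates' own lists lay just past 250 bp. They were 308 bp from a TSS in replicate 1 (signal 75.1) and 293 bp in replicate 2 (90.5). The TSS of senju lay 63 bp from that of eIF3h. Each of these eIF3 genes was bound in the list of 1 replicate at most.

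Of the 13 genes for factors that bind the cap or unwind the leader, none was bound in the conservative list, beside the same 10.2% of all genes. The main cap-binding protein gene eIF4E1 had a signal of 69.8 in the larger list and 61.2 in replicate 2's list, with summits at -140 and -138. The gene eIF4H1, for a stimulator of the helicase eIF4A, was bound in replicate 2 alone, at 51.8 and +129. The gene of eIF4G1, the scaffold of the cap complex, had no ranked peak within 250 bp of a TSS in either replicate or in the joint ranked list.

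The eIF2 group, which brings the initiator tRNA, and eIF2B, which recharges eIF2 with GTP, had 1 bound gene between them outside the conservative list and none in it. That gene was eIF2A, which encodes a separate tRNA-binding factor, with a signal of 84.2 in the larger list and the summit at +6. It was in neither replicate's own list. None of the 5 eIF2B genes was bound in any list, where the share over all genes was 8.18% to 13.4%. The gene eIF1, whose product keeps start codon choice accurate, was bound in replicate 1's list alone, with a signal of 27.3 and the summit at -108, rank 2686 of the 2782 peaks.

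**Figure D3:**
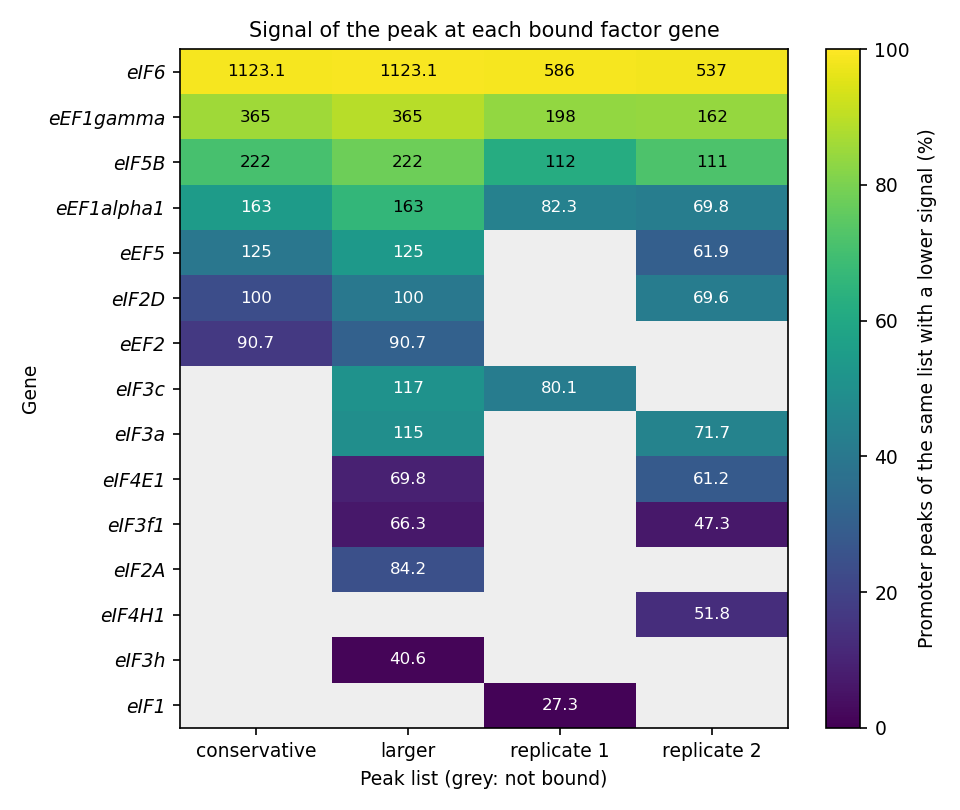
Signal (printed values, the authors' unit) of the peak at each of the 15 factor genes bound in any of 4 thresholded lists, with the colour giving the percentage of promoter peaks in that list with a lower signal. The 4 genes eIF6, eEF1gamma, eIF5B and eEF1alpha1 hold a value in every column, while grey cells mark the lists in which a gene was not bound.

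By their own thresholded lists, 4 factor genes were bound in both replicates, 2 only in replicate 1, 6 only in replicate 2, and 40 were not bound in either. Those in both were eEF1alpha1, eEF1gamma, eIF5B and eIF6, which were also the 4 genes bound in all 4 lists. Not all of them had stronger peaks than the genes of 1 replicate, since in replicate 2's list eIF3a, at 71.7, stood above eEF1alpha1, at 69.8. Those 4 are 33.3% of the factor genes bound in either replicate. Among all protein-coding genes that share was 49.6%, and among cytoplasmic ribosomal protein genes 69.8%. The share for factor genes rests on 12 genes, and the difference was not tested. Of the 7 peaks in the conservative list, 4 overlapped a peak of both replicates by at least 50% of the shorter peak, 2 a peak of replicate 2 alone and 1 (at eEF2) neither. When only peaks with such overlap in both replicates counted, 4 factor genes and 6.35% of all genes were bound.

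The ranked lists, which hold weak peaks too, gave values for most of the unbound genes. A ranked peak within 250 bp of a TSS was found in both replicates for 25 factor genes, only in replicate 1 for 5, only in replicate 2 for 13, and in neither for 9. Over all 13945 protein-coding genes the same counts were 5635, 1590, 2728 and 3992. The 9 genes without one were eIF1A, eIF2Bepsilon, eIF2beta, eIF3d2, eIF3g2, eIF3i, eIF4E4, eIF4E5 and eIF4G1, of which eIF4E5 had a peak of 20.3 in the joint ranked list. In replicate 1 the factor genes with a peak ranged from 3.51 to 586 with a median of 25.1, beside a median of 19.7 over all genes. In replicate 2 they ranged from 2.4 to 537 with a median of 30.5, beside 26.8 over all genes. A typical factor gene thus lay near the typical promoter with a peak, with a few genes far above it. The signals of the replicates had a Spearman's rho of 0.713 across the 25 genes, and of 0.354 across the 18 of them not bound in the conservative list. Over all 5635 genes with a peak in both, bound ones included, it was 0.624. The 18 genes were set apart by calls made from these peaks, so their rho is not comparable with the other values. The values of rho are descriptions across genes, which share the libraries and their unknown depth.

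**Figure D4:**
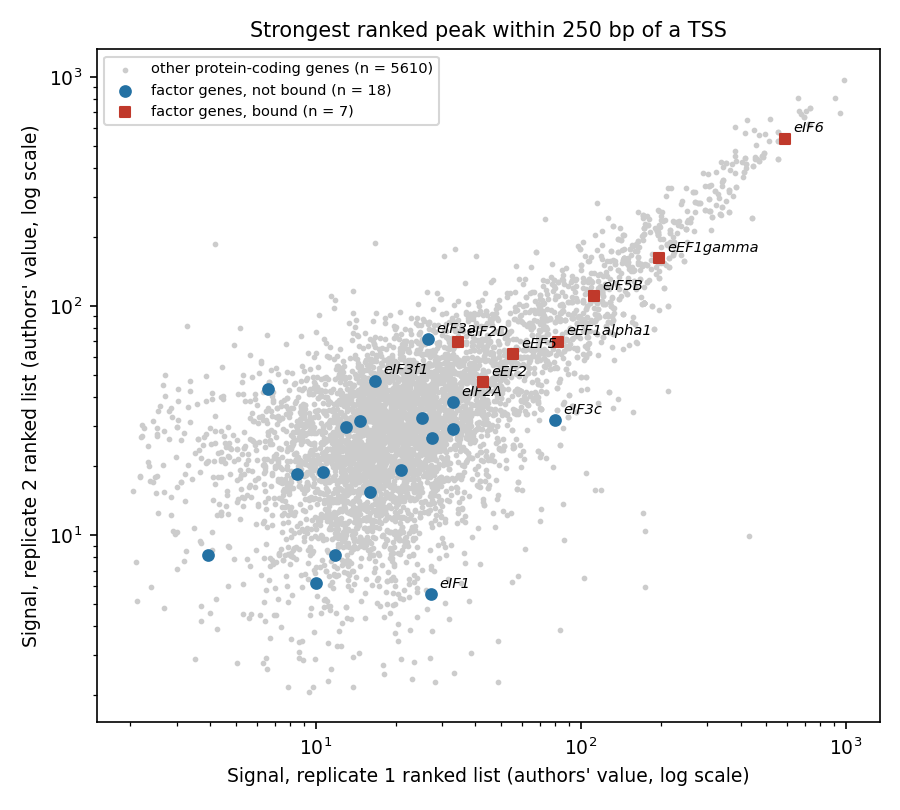
Signal of the strongest ranked peak within 250 bp of a TSS in replicate 1 (horizontal, log scale) and replicate 2 (vertical, log scale), 1 point a gene with a peak in both. The 7 bound factor genes run along the upper right, up to eIF6 at 586 and 537, and the unbound ones reach 80.1 in replicate 1 (eIF3c) and 71.7 in replicate 2 (eIF3a), above eEF2 at 42.7 and 46.5. Calls were made from these peaks, so the split by binding is not independent of the axes.

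Summits at bound genes lay within 250 bp of a start site by the rule of the call, so only their place inside that distance is described. Each position was taken to the nearest TSS, and 5 of the 7 bound factor genes have more than 1. The median position at the bound factor genes was -62 bp, with 6 of 7 upstream, and for the 4 elongation factors it was -32.5 bp. The values depend on the TSS chosen. With only the TSS farthest 5′ of each gene counted, the median over the 6 bound factor genes was -32.5 bp, with 4 upstream. Over all 1429 bound protein-coding genes the median was -115 bp with 82.1% upstream, over the 57 bound cytoplasmic ribosomal protein genes -13 bp, and over the 10 bound mitochondrial ones -134 bp. Within 100 bp of a TSS, 5 factor genes were bound (eEF1alpha1, eEF1gamma, eEF2, eEF5 and eIF2D), against 4.22% of all genes. Within 500 bp 9 were bound, against 13.2% of all genes, with eIF3h and eIF1 added. With any base of the peak counted in place of the summit the 7 genes stayed at 7, against 12.2% of all genes, and with overlapping peaks reduced to 1 also at 7, against 10.1%.

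The bound gene farthest from its summit was eIF5B, at 125 bp, and no factor gene lay between that and 332 bp. Just outside the threshold, eIF3h had a summit at +332 with a signal of 149 in the conservative list. The summit nearest to eIF1 lay at -352 with a signal of 192, and it was 29 bp upstream of the ribosomal protein gene RpL28. The summit 698 bp upstream of eIF2Bbeta belonged to the strongest peak in the list, with a signal of 1950.8, and lay 21 bp upstream of Ugalt, a gene for a sugar nucleotide transporter. The median distance from a factor gene to the nearest summit was 12304 bp, beside 10594 bp over all protein-coding genes, and it was 2287 bp over the elongation factors. Within 5 kb of a TSS, 19 of the 52 genes (36.5%) had a summit, beside 33.1% of all genes.

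Promoter layout was recorded because a summit between neighbouring genes can belong to both. A protein-coding gene lay head to head within 500 bp at 2 of the 7 bound factor genes, eEF1alpha1 and eIF5B, and at 18 of the 45 unbound ones (40%). Over all genes the shares were 52.8% of the bound and 24.4% of the unbound. At eEF1alpha1 and at eIF5B the summit lay inside the gene, not between the pair. No other gene had a TSS within 250 bp of either summit. More than 1 TSS was annotated at 5 of the 7 bound and 15 of the 45 unbound factor genes (33.3%), beside 46.2% and 24.3% over all genes. A gene with more TSSs has more places where a summit counts, and the part of this in the calls was not tested.

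Promoter motifs were searched from 250 bases upstream to 49 downstream of the TSS farthest 5′, on both strands. The initiators were searched on the strand of the gene, starting within 10 bp of any TSS. The DRE (TATCGATA) was in 14 of the 52 promoters (26.9%), beside 9.36% of all protein-coding genes and 30.4% of the cytoplasmic ribosomal protein genes. Among the bound genes eEF1gamma and eIF6 carried it. The TCT initiator (TCTTT) was at 11 factor genes (21.2%), beside 4.26% of all genes and 62% of the cytoplasmic ribosomal protein genes. These were eEF1alpha1, eEF1alpha2, eEF2, eEF5, eIF3c, eIF3d1, eIF3e, eIF3g1, eIF3i, eIF3m and eIF4A, so 4 of the 8 elongation factors carried it. The usual initiator letters TCAGT were at 3 factor genes (5.77%, beside 18% of all genes). Motif 1 (GGTCACAC) was in 11.5% of factor promoters and 7.7% of all, the E-box (CACGTG) in 7.69% and 4.2%, TATAAA in 44.2% and 45.8%, and GAGAG in 15.4% and 29.7%. No motif searched contains another. Of the 11 factor genes with TCTTT at the start, 3 were bound (27.3%), all of them elongation factors, and of the 41 without it 4 were (9.76%). Among initiation factors alone the order was the other way, with 0 of 7 bound with it and 3 of 37 (8.11%) without. The other motifs gave 14.3% bound with the DRE and 13.2% without, 12.5% and 13.6% for GAGAG, 25% and 12.5% for the E-box, and 17.4% and 10.3% for TATAAA. None of the 6 factor genes with Motif 1 and none of the 3 with TCAGT was bound, beside 15.2% and 14.3% of those without. The bound gene eIF5B is not among those 6. Its Motif 1 shown above lies at the TSS nearest to the summit, outside the stretch searched around its TSS farthest 5′. The count for Motif 1 thus depends on the TSS chosen. Over all genes 122 of 594 with the TCT initiator were bound (20.5%), beside 9.79% of those without. The same split among cytoplasmic ribosomal protein genes gave 39 of 57 (68.4%) with it and 18 of 35 (51.4%) without. The counts at the factor genes are small and are given as a description.

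Other genes of translation were counted in the conservative list, where 10.2% of all protein-coding genes were bound. The shares lay above that, those of the cap and poly(A) regulators and of the synthetases only slightly. The lists hold 5 to 35 genes, so the counts are a description and were not tested. Of 5 genes for release and recycling, 2 were bound, eRF1 and eRF3, which release the finished protein, with signals of 111 and 113. Of 14 genes for regulators of the cap and the poly(A) tail, 2 were bound. These were Thor, the 4E-BP that holds eIF4E, with a signal of 159 at +40, and larp, an RNA-binding protein gene, with 93.3. Of 5 genes for the phosphorylation of eIF2 and its targets, 2 were bound, with a signal of 635 (rank 104) at the stress transcription factor gene Atf3 and 123 at the kinase gene Gcn2. Rack1, which sits on the small subunit, was the 1 gene bound of 5 initiation helpers, with 208 at -19. Of 7 genes for the modification of eIF5A and eEF2, 2 were bound, Dph1 (318) and Dph2 (178), whose products act in making diphthamide on eEF2. Of 35 aminoacyl-tRNA synthetase genes, which charge tRNAs, 5 were bound, a share close to that of all genes, with GluProRS (293), IleRS (258), SerRS (238) and ProRS-m (141) the strongest. Thor, Atf3, Rack1, Dph1, Dph2 and these 4 synthetase genes were also bound in both replicates' own lists, whereas eRF1, eRF3 and Gcn2 were bound in replicate 2's list alone and larp in neither.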

How the data were processed

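Peaks of stc-GFP were measured in 2 biological replicates of whole embryos, from sonicated chromatin of 200 to 800 bp, per the labels. The build is dm6, per the labels. Aligner and caller were not given in the sources used here. Beside each peak the authors deposited a signal, a score (a measure of the IDR, the irreproducible discovery rate) and, in ranked lists, a −log10 value of the IDR. Every peak in the conservative list had an IDR of 0.01 or less. The files hold no read counts, so depth is unknown and no interval covers the spread between replicates. Each replicate's own list was thresholded separately.

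Peaks on the main chromosomes were used. Summits were matched to TSSs of Ensembl BDGP6.54, release 115, and sequence was read from the RefSeq Release 6 assembly. For several summits near a gene, the peak of highest signal was kept. Shares carry exact (Clopper-Pearson) 95% intervals, and differences Newcombe intervals. No test was run over the genes. Genes named were those bound in any of the 4 thresholded lists, up to 5 unbound genes with the nearest summit, head-to-head neighbours of bound genes and up to 4 bound genes of each related list. Genes named in the ranked lists and at motifs were added after their values were seen. The members, the related lists and the motifs were chosen with earlier results of these data known. The code of the call was run on a simulated list, not on the deposited ones. It called 200 of 200 genes, among 13945, with a summit planted within 250 bp of a TSS. From 2000 peaks placed farther than that from every TSS it called 0. Both counts follow from the placement, so they check the code only. Python 3.11.15, pandas 2.3.3, numpy 2.4.6 and scipy 1.17.1 were used. Alternatives were the list, the replicate, the distance, the TSS, the part of the peak, the IDR and the overlap.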

Additional observations from a re-analysis of the deposited data

Results flagged for a closer look

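A strong peak at eIF4EHP, which encodes a cap-binding protein that represses translation, stood in the ranked list but in none of the 4 thresholded lists that gave the calls. The interval ran from 24109029 to 24109362 on 3R. Its signal was 902, rank 47 of the ranked list, and its −log10 IDR was 5. Among factor genes its signal was second to that of eIF6. The replicates' ranked lists held it as well, with signals of 451 (rank 43, summit at -241) and 440 (rank 51, summit at -274). The summit in the joint ranked list was at -233, and a TSS of CG18428 also lay within 250 bp. Of the 3926 ranked peaks with an IDR of 0.01 or less, 95 were not in the conservative list, 25 of them near a protein-coding TSS, and the sources used here give no reason. With this peak counted, eIF4EHP would be bound. The calls follow the thresholded lists as deposited.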

How the results depend on the processing

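The count of bound factor genes was 7 in the conservative list, 13 in the larger list and 4 when peaks had to lie in both replicates' lists. From 1 replicate alone it ran from 6 (replicate 1) to 10 (replicate 2). It ran from 5 to 9 under the other 6 settings. As a share it was 13.5% in the conservative list, against 10.2% of all genes, and 25% in the larger list, against 13.4%. With peaks in both replicates' lists it was 7.69%, against 6.35%. The difference between elongation and initiation stayed above 0 under all 10 settings, from 15.9 to 47.7 percentage points, and from 1 replicate alone it ran from 15.9 to 21.6. The settings are not independent. They draw on the same libraries, most filter the same conservative list, and the elongation factors bound were always among eEF1alpha1, eEF1gamma, eEF2 and eEF5. The 95% interval of the difference included 0 under 4 settings. These were the larger list, each replicate alone and peaks in both replicates' lists (20.5 points, -0.302 to 54.7). The intervals cover counting error over genes only and are not a test. The median share of promoter peaks with a lower signal than a factor gene's peak was 54.8%, and from 1 replicate alone it ran from 42.1% to 52.8%. The median position was -62 bp, and from 1 replicate alone it ran from -93 to -49.5 bp. With only the TSS farthest 5′ of each gene counted it was -32.5 bp. The share of initiation factors bound changed sides against the share over all genes. It was lower in the conservative list (6.82% against 10.2%). It was higher in the larger list (20.5% against 13.4%) and in replicate 1's and replicate 2's own lists (9.09% against 8.18%, 15.9% against 10.8%). The median share of promoter peaks with a lower signal was 49.4% in the larger list. eEF1gamma was bound under all 10 settings, and eEF2 was lost under 4. No paired analysis was possible because there is 1 group. Read depth is unknown, so a gene without a peak may hold binding too weak for these libraries to show.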
